A study of Mus musculus with 6 samples.

Results

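Transforming growth factor beta (TGF-beta) genes were examined in splenic CD8 T cells from control mice and from mice treated with focused ultrasound, which brings sound energy to one place in the body. The genes were the ligand Tgfb1, the receptor chains Tgfbr1, Tgfbr2 and Tgfbr3, the signal transducers Smad2 and Smad3, the inhibitors Smad7, Ski and Skil, and Itgae, which encodes the CD103 integrin chain. They were taken by gene symbol from a table of 17744 genes, and all 10 were found. All 10 were also among the 10655 genes tested, since each had at least 1 FPKM (fragments per kilobase of gene, scaled to the size of the library) in all 6 libraries.

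Cells were sorted from spleen as CD45+ CD3+ CD8a+. The control group held 3 libraries, labelled wt for genotype and control for treatment. The ultrasound group held 3 libraries, labelled "fus irradiation" in both fields, so that no genotype is named for it. Strain, age, sex, tumour status, dose, interval after treatment and pooling of animals are not given in the sources used here, and p-values then measure only the spread between these samples, which may be technical.

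TGF-beta is secreted as a latent complex and must be freed before it can bind its receptor. The ligand binds Tgfbr2, which recruits and phosphorylates Tgfbr1, and Tgfbr1 phosphorylates Smad2 and Smad3, which enter the nucleus with Smad4. Smad7 competes at the receptor, Ski and Skil repress Smad-bound promoters, and transcription of Smad7 and Skil is itself induced by the pathway, as a negative feedback. In CD8 T cells the pathway restrains effector function and induces CD103, which binds E-cadherin on epithelium and is also carried by naive CD8 T cells of the mouse spleen.

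Depth was 35024080 to 38113103 reads per library, recovered from the deposited values, and each of the 10 genes had at least 1061 reads in every library. Component 1 of the tested genes (70.9% of the variance) held the controls between -28.60 and -15.81, ultrasound 1 at -0.53 and ultrasound 2 and 3 at 33.22 and 39.71. The labels name no batch. Fits without single libraries, and a fit that leaves ultrasound 1 alone against the controls, were therefore run as alternatives.

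Of the 10 genes, 1 rose and 2 fell. Tgfb1 was higher, and Smad7 and Skil were lower, by limma with a Benjamini-Hochberg adjusted p under 0.05 over all tested genes. By the same rule 8.11% of all tested genes were called, 6.55% higher and 1.56% lower in ultrasound libraries. The ultrasound libraries lay entirely above the controls for 2 of the 10 genes (Tgfb1 and Ski), beside 25.9% of all tested genes, and entirely below for 3 (Smad7, Skil and Itgae), beside 8.96% (34.8% for either side). Log2 changes are on the log2(FPKM + 1) scale, and the median over all tested genes was 0.09, against -0.02 in the authors' deposited table. The median over the 10 genes was -0.02. Median-of-ratios scaling, a pseudocount of 0.1 and voom on recovered reads called the same 3 genes, beside 4.1%, 8.02% and 5.38% of all tested genes. Centring on T cell genes and leaving out control 1 each called Tgfb1 and Smad7, beside 9.24% and 5.32%, and the authors' deposited q called Itgae as well as these 3, beside 12.3%. In bulk RNA, fewer cells of a type and less RNA per cell cannot be told apart.

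**Figure D1:**
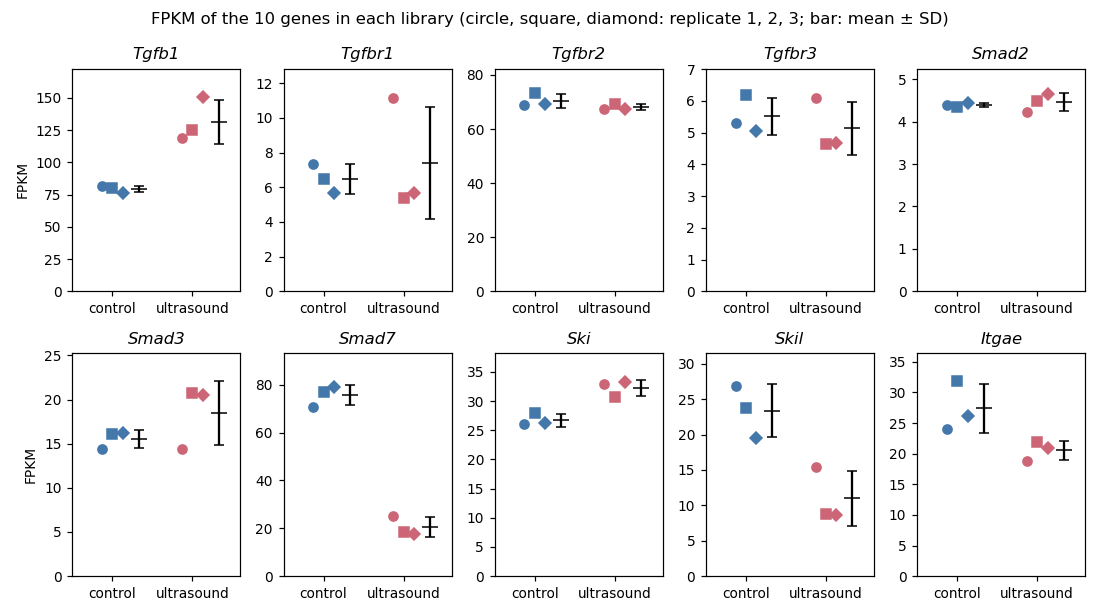
FPKM of the 10 genes in each of 3 control and 3 ultrasound libraries, on linear axes that start at 0; symbols mark the replicate number and bars give mean ± SD. Smad7 lies between 17.7 and 25.3 FPKM in ultrasound libraries and between 70.8 and 79.2 in controls, while Tgfbr2 stays between 67.3 and 73.2 in all 6.

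The inhibitory Smad gave the largest change of the 10. Smad7 (NCBI Gene 17131, on chromosome 18) had 70.8, 76.7 and 79.2 FPKM in control 1, 2 and 3, against 25.3, 18.6 and 17.7 in ultrasound 1, 2 and 3. The groups lay far apart, and ultrasound 1 was the highest of the ultrasound libraries while still below every control. Smad7 fell from 75.6 ± 4.28 to 20.5 ± 4.15 FPKM (mean ± SD, n = 3), and the log2 change was -1.85 (SE 0.14, limma adjusted p 0.0297), or -1.93 relative to the median gene. On the linear scale its mean fell by 72.8%. By log2 change it was at rank 30 from the lowest of 10655 tested genes. In the authors' deposited table Smad7 had the smallest p of all 17744 genes, 1.07e-28, with a log2 fold change of -2.01 and q of 1.89e-24.

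With ultrasound 1 alone set against the controls, the log2 change of Smad7 was -1.54. Without control 2, control 3, ultrasound 2 or ultrasound 3 the limma adjusted p of Smad7 was 0.159, 0.144, 0.0634 and 0.078, in fits that called 0 of 10655 genes. The log2 change stayed between -2.01 and -1.54 over 14 alternatives, with adjusted p from 1.89e-24 to 0.159.

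Ski and Skil (also known as SnoN) are related corepressors of Smad targets, of which Skil passed the test and Ski did not. Skil (NCBI Gene 20482, GRCm38 chromosome 3, 31095058 to 31122923) had 26.9, 23.8 and 19.4 FPKM in control 1, 2 and 3, against 15.5, 8.79 and 8.68 in ultrasound 1, 2 and 3. All ultrasound libraries were below all controls, with ultrasound 1 nearest to them. Skil fell from 23.4 ± 3.72 to 11.0 ± 3.88 FPKM (mean ± SD, n = 3), and the log2 change was -1.06 (SE 0.23, limma adjusted p 0.0433). In the authors' deposited table it had a log2 fold change of -1.21 and q of 0.000346.

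The call on Skil was close to the threshold. Its limma adjusted p was 0.116 with ultrasound 1 alone against the controls, where the log2 change was -0.55, and 0.0836 with libraries centred on T cell genes. It was 0.112, 0.179, 0.144, 0.134 and 0.143 without control 1, control 2, control 3, ultrasound 2 and ultrasound 3, and 0.000543 without ultrasound 1. Over 14 alternatives the adjusted p ran from 0.000346 to 0.179.

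Ski (NCBI Gene 20481, chromosome 4, 155154075 to 155222535) had 26.0, 27.9 and 26.2 FPKM in the controls, against 32.9, 30.6 and 33.3 in ultrasound 1, 2 and 3. The groups did not overlap, but the log2 change of 0.26 with standard error 0.08 missed the threshold (limma adjusted p 0.0897). It passed without ultrasound 1 (limma adjusted p 0.0228), in a fit that called 53.7% of all tested genes, and the authors' deposited q was 0.362.

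Ratios within a library do not depend on its scaling. The Ski to Skil ratio of FPKM was 0.968, 1.17 and 1.35 in the controls, against 2.13, 3.49 and 3.83 in ultrasound 1, 2 and 3. Ski transcripts were thus near the level of Skil in controls and above it in each ultrasound library. The Smad7 to Smad3 ratio was 4.94, 4.76 and 4.89 in the controls, against 1.76, 0.900 and 0.861 in ultrasound 1, 2 and 3. In ultrasound 2 and 3 the inhibitor was therefore below the transducer per length. For both ratios the two-sided exact permutation p was 0.1, the smallest that 3 against 3 libraries can give, and 0.167 adjusted over 5 ratios.

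**Figure D2:**
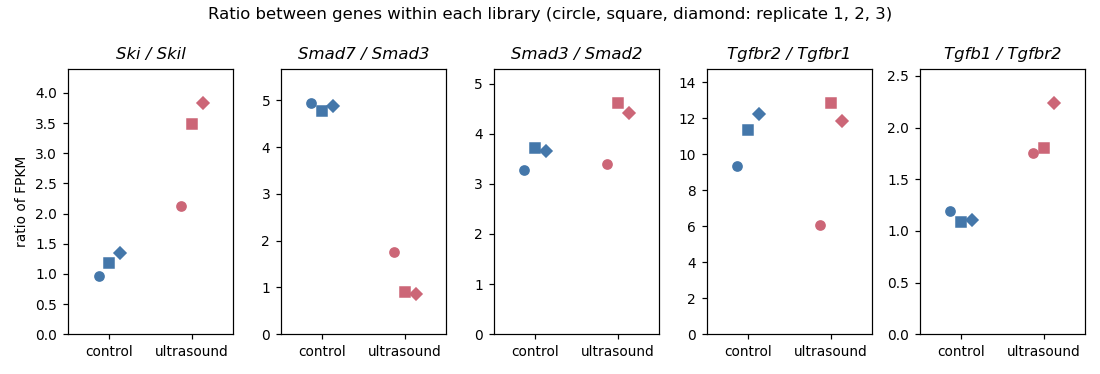
Ratio of FPKM between pairs of the genes within each library, on linear axes that start at 0; symbols mark the replicate number. The control and ultrasound libraries do not overlap for Ski to Skil, Smad7 to Smad3 and Tgfb1 to Tgfbr2, and overlap for Smad3 to Smad2 and Tgfbr2 to Tgfbr1.

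The ligand moved the other way. Tgfb1 (NCBI Gene 21803, chromosome 7, 25687002 to 25705077), the TGF-beta isoform of immune cells, had 81.7, 79.9 and 76.5 FPKM in control 1, 2 and 3, against 119, 125 and 151 in ultrasound 1, 2 and 3. All ultrasound libraries lay above all controls, with ultrasound 3 the highest. Tgfb1 rose from 79.4 ± 2.63 to 131 ± 16.8 FPKM (mean ± SD, n = 3), and the log2 change was 0.71 (SE 0.11, limma adjusted p 0.0304), or 0.63 relative to the median gene. The authors' deposited table gave 0.60 with q of 0.000578. Over 14 alternatives the log2 change ran from 0.58 to 0.78 and the adjusted p from 0.000578 to 0.159. The limma adjusted p was 0.159, 0.144, 0.0772 and 0.0905 without control 2, control 3, ultrasound 2 and ultrasound 3, and 0.0619 with ultrasound 1 alone against the controls.

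The other isoforms were scarce: Tgfb3 was listed between 0.427 and 0.775 FPKM and Tgfb2 at 0.0782 or less, and neither entered the test. The Tgfb1 to Tgfbr2 ratio of FPKM was 1.19, 1.09 and 1.11 in the controls, against 1.76, 1.80 and 2.24 in ultrasound 1, 2 and 3, so that the ligand was above its receptor in all 6 libraries and further above it in ultrasound libraries. The exact permutation p for this ratio was again 0.1.

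Of the 10 genes, 5 had an entry in the RefSeq promoter table (GRCm38.p6). Smad7 and Skil, the genes that fell, had none, nor had Itgae, Smad2 and Tgfbr3, so their promoters were not searched. The 250 bases before the start site are shown for Tgfb1, the gene that rose, and for Tgfbr2, its abundant receptor, whose level did not pass the test. They are written 5′ to 3′ on the gene's strand, and capitals mark CAGAC, a sequence that holds the CAGA box bound by Smad3 and Smad4. The windows are chr7:25686752-25687001, plus strand, and chr9:116175364-116175613, minus strand.
Tgfb1: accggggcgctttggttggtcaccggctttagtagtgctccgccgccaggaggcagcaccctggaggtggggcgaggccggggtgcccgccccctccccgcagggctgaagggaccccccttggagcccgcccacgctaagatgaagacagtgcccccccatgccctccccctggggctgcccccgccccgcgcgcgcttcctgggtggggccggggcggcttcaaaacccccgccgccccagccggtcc
Tgfbr2: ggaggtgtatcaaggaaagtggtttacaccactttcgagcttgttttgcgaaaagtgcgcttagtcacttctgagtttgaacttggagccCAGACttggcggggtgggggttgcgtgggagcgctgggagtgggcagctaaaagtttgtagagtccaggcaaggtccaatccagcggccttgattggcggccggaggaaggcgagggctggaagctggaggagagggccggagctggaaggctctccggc
CAGAC was searched on both strands. It occurred 0 times in the Tgfb1 window and 1 time in the Tgfbr2 window, on the gene's strand, and 42.2% of 32851 windows of this length held it. The AP-1 sequence TGANTCA, also searched on both strands and not overlapping CAGAC, occurred in neither, and in 6.75% of all windows. G and C made up 75.2% of the Tgfb1 window and 58.4% of the Tgfbr2 window, with a median of 52.4% over all windows. These letter matches say nothing on whether a factor binds.

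None of the receptor chains passed the test. Tgfbr2 (NCBI Gene 21813, chromosome 9, 116087695 to 116175363), the ligand-binding chain, had 68.8, 73.2 and 69.1 FPKM in the controls, against 67.6, 69.3 and 67.3 in ultrasound 1, 2 and 3. This was the steadiest of the abundant members, with a log2 change of -0.05, standard error 0.08 and limma adjusted p 0.688. Centring on T cell genes gave 0.0004 and median-of-ratios scaling -0.15.

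Tgfbr1 (NCBI Gene 21812, chromosome 4, 47353222 to 47414926), the signalling kinase chain, had 7.36, 6.46 and 5.65 FPKM in the controls, against 11.1, 5.40 and 5.68 in ultrasound 1, 2 and 3. Ultrasound 1 stood alone above every control, while ultrasound 2 lay below them all and ultrasound 3 just above the lowest. The log2 change was 0.11 with standard error 0.25 (limma adjusted p 0.784). It was -0.19 without ultrasound 1 and 0.70 (limma adjusted p 0.0619) with ultrasound 1 alone against the controls. Ultrasound 1 also stood apart in the Tgfbr2 to Tgfbr1 ratio of FPKM: 6.08 in ultrasound 1, 12.8 and 11.8 in ultrasound 2 and 3, and 9.35 to 12.2 in the controls.

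Tgfbr3 (NCBI Gene 21814, chromosome 5, 107106567 to 107289629), the betaglycan co-receptor, had 5.30, 6.17 and 5.06 FPKM in the controls, against 6.09, 4.65 and 4.66 in ultrasound 1, 2 and 3. Ultrasound 1 lay within the controls and the other ultrasound libraries just below them. The log2 change was -0.09 with standard error 0.13 (limma adjusted p 0.647).

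The receptor-activated Smads did not pass either. Smad3 (NCBI Gene 17127, chromosome 9, 63646766 to 63757994) had 14.3, 16.1 and 16.2 FPKM in the controls, against 14.3, 20.7 and 20.5 in ultrasound 1, 2 and 3. Ultrasound 1 was marginally below the lowest control, and ultrasound 2 and 3 were above every control. The log2 change was 0.22 with standard error 0.15 (limma adjusted p 0.335), 0.39 without ultrasound 1 (limma adjusted p 0.00594) and -0.11 with ultrasound 1 alone against the controls (limma adjusted p 0.576).

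Smad2 (NCBI Gene 17126, on chromosome 18) had 4.39, 4.34 and 4.44 FPKM in the controls, against 4.23, 4.49 and 4.65 in ultrasound 1, 2 and 3. Its log2 change was 0.02 with standard error 0.09 (limma adjusted p 0.905), and the sign turned to -0.07 with median-of-ratios scaling. The Smad3 to Smad2 ratio of FPKM ran from 3.27 to 3.71 in controls and from 3.39 to 4.61 in ultrasound libraries. The length the authors' values imply for Smad2 is 14.2 kb, the longest of the 10, against 2.20 kb for Tgfb1, the shortest, so the FPKM of Smad2 would understate a shorter transcript. Smad4, the partner of both, had 17.2 ± 1.08 FPKM in controls and 16.8 ± 2.53 in ultrasound libraries (mean ± SD, n = 3; limma adjusted p 0.841).

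Itgae (NCBI Gene 16407, chromosome 11, 73090505 to 73147449) had 24.1, 31.8 and 26.2 FPKM in control 1, 2 and 3, against 18.8, 21.9 and 20.9 in ultrasound 1, 2 and 3. All ultrasound libraries were below all controls, and the gap between the highest ultrasound library and the lowest control was smaller than the spread among the controls. The means were 27.4 ± 3.99 and 20.5 ± 1.59 FPKM (mean ± SD, n = 3), and the log2 change of -0.39 (SE 0.12) missed the threshold (limma adjusted p 0.0953). It passed without ultrasound 1 (limma adjusted p 0.0448), in the fit that called 53.7% of all genes. In the authors' deposited table, where 12.3% of all genes had q under 0.05, Itgae had a log2 fold change of -0.54 and q of 0.00508. Over 14 alternatives the log2 change ran from -0.54 to -0.28 and the adjusted p from 0.00508 to 0.286.

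CD103 pairs with the beta7 chain. Itgb7 had 119, 129 and 132 FPKM in the controls, against 122, 152 and 169 in ultrasound 1, 2 and 3 (log2 change 0.21, limma adjusted p 0.306). Without ultrasound 1 it was called higher (log2 change 0.34, limma adjusted p 0.011), where 53.7% of all tested genes were called, and with ultrasound 1 alone the log2 change was -0.05. Cdh1, which encodes E-cadherin, was listed between 0.659 and 0.831 FPKM in controls and between 0.876 and 1.40 in ultrasound libraries, too low for the test. Runx3, a transcription factor of CD8 T cells known to act on Itgae, had 32.4 ± 0.769 and 34.6 ± 2.24 FPKM (mean ± SD, n = 3; limma adjusted p 0.457).

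**Figure D3:**
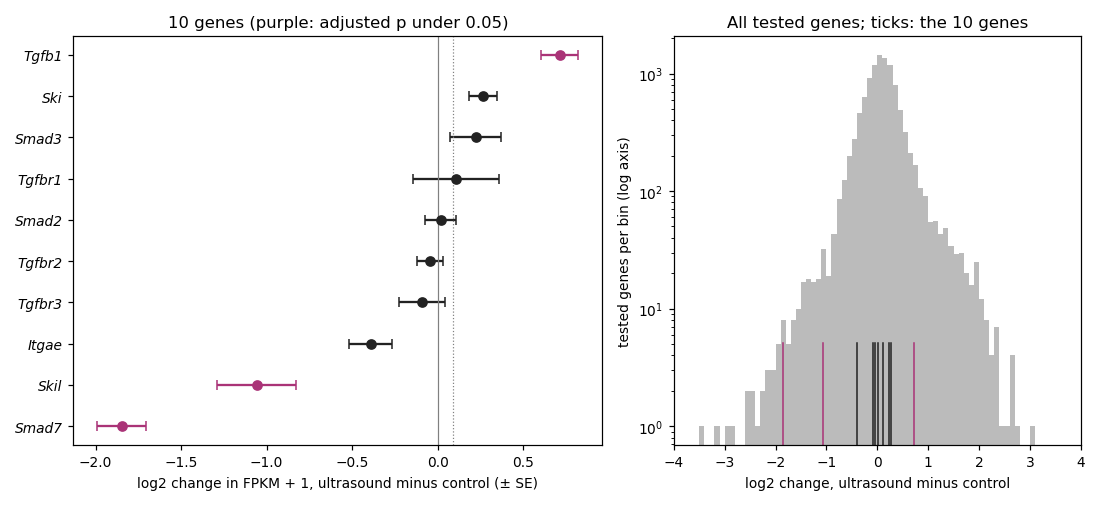
Left, log2 change in FPKM + 1 (ultrasound minus control) of the 10 genes with standard errors, where purple marks an adjusted p under 0.05 and the dotted line the median of all tested genes at 0.09. Right, the same quantity for all 10655 tested genes, with a log count axis and ticks for the 10 genes; Smad7 at -1.85 and Skil at -1.06 lie in the lower tail, and most of the other ticks lie near the centre.

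Levels per length were ordered alike in the groups except for the inhibitors. In controls Tgfb1, Smad7 and Tgfbr2 led, with means of 79.4, 75.6 and 70.4 FPKM, and the ranges of neighbours in this order overlapped. Itgae, Ski and Skil followed at 27.4, 26.7 and 23.4 FPKM, again with overlapping neighbours. Below them and apart from its neighbours stood Smad3 at 15.6 FPKM. Tgfbr1 at 6.49 and Tgfbr3 at 5.51 FPKM overlapped, and Smad2 at 4.39 lay apart below them. In ultrasound libraries Smad7 went from the second to the fifth place, at 20.5 FPKM, where its range overlapped those of Itgae and Smad3, and Skil from the sixth to the seventh. Tgfb1 at 131, Tgfbr2 at 68.1 and Ski at 32.3 FPKM led there without overlap.

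Ultrasound 1 differed from the other ultrasound libraries in several of the genes. In ultrasound 1, 3 genes lay above every control (Tgfb1, Tgfbr1 and Ski), beside 44.6% of all tested genes, and 6 lay below (Tgfbr2, Smad2, Smad3, Smad7, Skil and Itgae), beside 23.1%. In ultrasound 2 and 3, Tgfb1, Smad2, Smad3 and Ski lay above every control. Background shares there were 53.2% and 49.6%. Below every control lay 5 genes in each, Tgfbr3, Smad7, Skil and Itgae in both, with Tgfbr1 in ultrasound 2 and Tgfbr2 in ultrasound 3, beside 29.6% and 34.5% of all tested genes. Tgfb1, Ski, Smad7, Skil and Itgae were thus on one side of the controls in every ultrasound library, and Smad2 and Smad3 lay below them in ultrasound 1 and above them in ultrasound 2 and 3.

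Summed markers of macrophages and neutrophils moved with the groups, while those of B cells differed in direction among the ultrasound libraries. Summed FPKM of 13 macrophage and monocyte markers was 782 to 1166 in controls and 2254 to 3888 in ultrasound libraries. The log2 change was positive for 13 of 13, with 5 called, beside 6569 of 10655 tested genes positive and 8.11% called. The sum over 10 neutrophil markers was 183 to 565 in controls and 2242, 633 and 667 in ultrasound 1, 2 and 3, with 10 of 10 positive and 4 called higher. The sum over 8 B cell markers was 236 to 363 in controls, 175 in ultrasound 1, and 925 and 806 in ultrasound 2 and 3. No gene of these 3 lists was at 0 in any library, and no B cell marker was called. NK cell markers, 6 of 6 listed, summed to 14.4 to 14.5 FPKM in controls, 16.8 in ultrasound 1, and 42.5 and 36.1 in ultrasound 2 and 3. Cd160 alone gave 7.37 to 10.2 FPKM of the sums in controls and 8.29, 13.1 and 11.3 in ultrasound 1, 2 and 3. Ncr1, too low for the test, had 0.133 to 0.228 FPKM in controls and 0.533, 5.85 and 5.05 in ultrasound 1, 2 and 3. The log2 change was positive for 5 of 5 tested, and 1, Klrb1c, was called higher. The macrophage list thus moved with Tgfb1 in all 3 ultrasound libraries and was highest, as Tgfb1 was, in ultrasound 3; its part in the result was not tested.

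The sorted cell type was present in all libraries. Of 7 T cell markers 6 were listed, with summed FPKM of 1668 to 1738 in controls and 1415, 1826 and 1609 in ultrasound 1, 2 and 3, and none was called. Each of the 6 genes was above 0 in every library. Markers of CD4 and regulatory T cells, 6 of 6 listed, were also present. They summed to 160 to 189 FPKM in controls and to 189, 117 and 151 in ultrasound 1, 2 and 3. Ctla4 alone gave 81.5 to 88.8 FPKM of the sums in controls, and 76.8, 14.4 and 15.8 in ultrasound 1, 2 and 3. Zbtb7b went the other way, with 8.81 to 11.5 FPKM in controls and 13.8, 19.4 and 28.8 in ultrasound 1, 2 and 3. The log2 change was positive for 3 of the 6 genes and negative for 3, so the sum does not speak for the list. By limma 0 of these 6 were called, and their part was not tested. Naive and central memory markers, 7 of 7 listed, summed to 757 to 787 FPKM in controls and to 725, 685 and 620 in ultrasound 1, 2 and 3. The sum of these naive and central memory markers was therefore lower beside Itgae, though 0 of 7 were called by limma. Their part was not tested. Markers of dendritic cells, some of which carry CD103, were higher in ultrasound 2 and 3. Their summed FPKM was 70.7 and 66.2 there, against 20.7 to 44.1 in controls and 27.7 in ultrasound 1. Itgax alone gave 49.4 and 45.0 FPKM of the sums in ultrasound 2 and 3. Of the 8 markers 3 entered the limma fit and 0 were called, and their part in the result for Itgae was not tested. With libraries centred on T cell genes, Tgfb1 and Smad7 kept log2 changes of 0.76 and -1.80 (limma adjusted p 0.0385 for each).

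**Figure D4:**
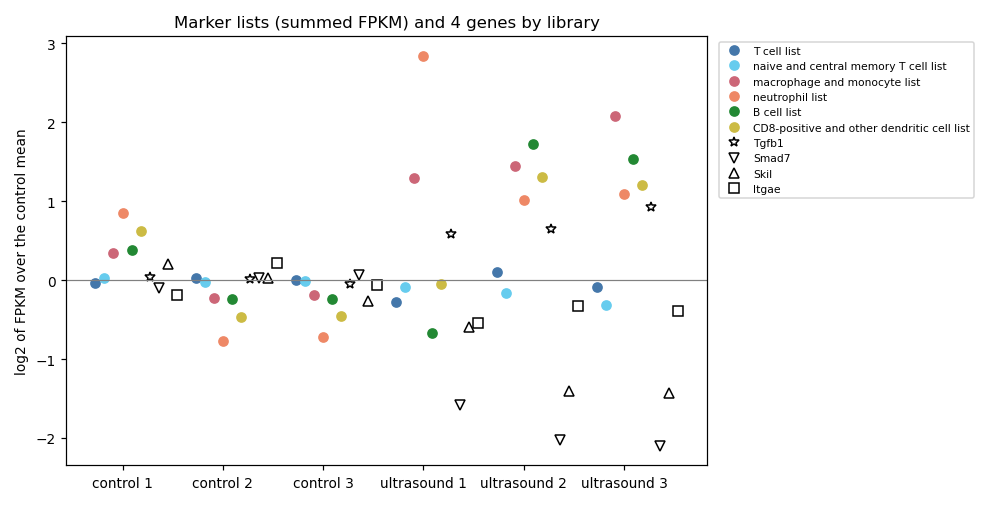
Log2 of summed marker FPKM over the control mean for 6 marker lists (coloured circles), and of FPKM for Tgfb1, Smad7, Skil and Itgae (open black symbols), by library. The macrophage list and Tgfb1 lie above the controls in every ultrasound library, whereas Smad7, Skil and Itgae lie below.

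Other genes of the pathway were taken from a list of 55 ligands, activators, receptors, Smads, cofactors and regulators. Of these 54 were listed, 40 were tested, 4 rose, 3 fell and 33 did not pass, beside 8.11% of all tested genes called. The median log2 change of the list was 0.04, against 0.09 over all tested genes. Among the genes that fell were the homeobox corepressors of Smads: Tgif1 went from 29.7 ± 5.38 to 9.38 ± 3.96 FPKM (log2 change -1.62) and Tgif2 from 5.50 ± 0.739 to 2.38 ± 0.297 (log2 change -0.94; mean ± SD, n = 3; limma adjusted p 0.0305 and 0.0297). Several other negative regulators on the list did not pass. The limma adjusted p was 0.499 and 0.205 for the ubiquitin ligases Smurf1 and Smurf2, and 0.26 for the ligase Nedd4l. For Pmepa1 and the phosphatase Ppm1a it was 0.702 and 0.672. The inhibitor Smad6, at 0.123 FPKM or less, was not tested, and Bambi, which passed, is described next.

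Bambi, a pseudoreceptor that blocks signalling, was called lower (means of 1.41 and 0.376 FPKM, limma adjusted p 0.0438). Zfyve9 (SARA), which anchors Smads at the receptor, was called higher (means of 0.293 and 1.71 FPKM, limma adjusted p 0.0402). Each entered the test through 1 group only, Bambi through the controls and Zfyve9 through the ultrasound libraries, so that a difference was required of them. Both calls also ended with median-of-ratios scaling (limma adjusted p 0.0516 and 0.0535). Leaving them aside, 3 genes of the list rose (Nrros, Furin and Acvrl1) and 2 fell (Tgif1 and Tgif2).

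Genes called higher included Nrros and Furin, which act on the latent ligand. Nrros, which holds latent TGF-beta on myeloid cells, had 16.9, 14.3 and 16.4 FPKM in the controls, against 23.5, 31.1 and 34.2 in ultrasound 1, 2 and 3 (log2 change 0.85, limma adjusted p 0.0312). Furin, the protease that cleaves the TGF-beta precursor, rose from 13.6 ± 1.08 to 21.5 ± 2.18 FPKM (mean ± SD, n = 3; limma adjusted p 0.0311). Acvrl1, a type I receptor best known in endothelium, rose from 2.90 ± 0.376 to 5.25 ± 1.08 FPKM (mean ± SD, n = 3; limma adjusted p 0.0465). Lrrc32, which holds latent TGF-beta on regulatory T cells, and Itgav, a chain of the integrins that free it, did not pass (limma adjusted p 0.954 and 0.353). The call on Furin ended with median-of-ratios scaling (limma adjusted p 0.0544), T cell centring (0.0586) and voom (0.0516), and that on Acvrl1 with median-of-ratios scaling (0.0736) and voom (0.0724). These calls stood beside the higher sum of macrophage markers given above, whose part was not tested.

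A further list held 31 genes that respond to TGF-beta or belong to the tissue-resident T cell programme. Of these 30 were listed and 26 tested; 2 rose, 4 fell and 20 did not pass, beside 6.55% of all tested genes called higher and 1.56% called lower. The median log2 change was 0.07, against 0.09 over all tested genes. No expected direction was set for the genes of this list, so the median cannot decide whether a response to TGF-beta changed. Tgfbi, a secreted matrix protein named for its induction by TGF-beta, rose from 29.1 ± 21.0 to 104 ± 23.3 FPKM (mean ± SD, n = 3; limma adjusted p 0.0447). Control 1, at 53.2 FPKM, stood above the other controls, as it also did in the sums of macrophage and neutrophil markers. Cd244a, the receptor 2B4, rose from 2.58 ± 1.40 to 7.59 ± 0.679 FPKM (mean ± SD, n = 3; limma adjusted p 0.0335). Median-of-ratios scaling ended both calls (limma adjusted p 0.0626 for Tgfbi and 0.0512 for Cd244a), and voom ended that on Tgfbi (0.0582).

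The genes that fell were Klf2, S1pr1, Gpr183 and Rgs16. Klf2, a transcription factor that drives S1pr1, had 683, 653 and 751 FPKM in the controls, against 477, 299 and 347 in ultrasound 1, 2 and 3. S1pr1, the receptor for exit from lymphoid tissue, had 154, 154 and 158 FPKM, against 119, 111 and 101. All ultrasound libraries lay below all controls for both (log2 changes -0.92 and -0.50, limma adjusted p 0.0335 and 0.032). Centring on T cell genes ended both calls (limma adjusted p 0.0781 and 0.0988). Gpr183, an oxysterol receptor that positions cells in the spleen, went from 35.0 ± 0.933 to 21.8 ± 1.51 FPKM, and Rgs16, a brake on G protein signalling, from 45.5 ± 5.48 to 7.87 ± 5.25 (mean ± SD, n = 3; limma adjusted p 0.0297 and 0.0304). The residency integrin chain Itga1, at 0.825 FPKM or less, was not tested. Cxcr6 and Prdm1 of the residency programme did not pass (limma adjusted p 0.242 and 0.223), nor did the T-box factors Tbx21 and Eomes (0.577 and 0.110).

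The counts of both lists rested on the libraries, as those of the 10 genes did. Without ultrasound 1, 21 pathway genes and 17 response genes were called by limma, where 53.7% of all tested genes were. Without control 2, control 3, ultrasound 2 or ultrasound 3 none was called; 9 to 10 pathway and 8 to 11 response genes then had an unadjusted p under 0.05, beside 1962 to 2154 of 10655 tested genes. Without control 1, 2 pathway and 4 response genes were called by adjusted p, beside 5.32% of all tested genes. Calls lost without control 1 were those on Bambi (limma adjusted p 0.0539), Zfyve9 (0.0729), Nrros (0.0522), Acvrl1 (0.114), Furin (0.0595), Klf2 (0.0742) and S1pr1 (0.0711).

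With ultrasound 1 alone against the controls, Tgif1 and Tgif2 had limma adjusted p of 0.0517 and 0.0515, Nrros 0.0681, Klf2 0.0709 and S1pr1 0.0758. The limma adjusted p of Acvrl1, Zfyve9, Bambi, Tgfbi and Cd244a there was 0.132 to 0.174. Log2 changes there were nearer to 0 than over all libraries for Klf2 (-0.54), Tgif1 (-1.03), Rgs16 (-1.63), Bambi (-0.52) and Nrros (0.54), among others. They were farther from 0 for Furin (0.74 against 0.63), Gpr183 (-0.77 against -0.66) and Tgfbi (2.19 against 1.99). Furin, Rgs16 and Gpr183 stayed called in that fit.

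**Figure D5:**
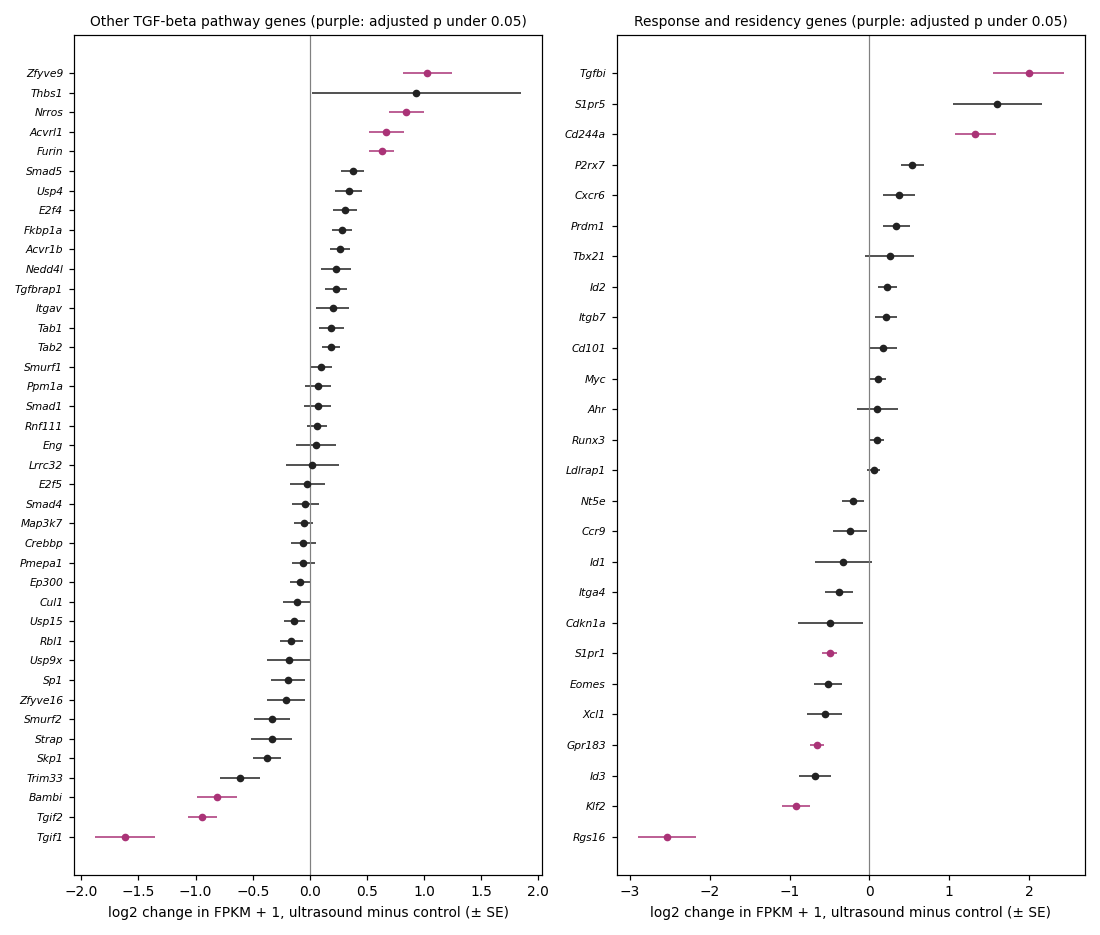
Log2 change in FPKM + 1 (ultrasound minus control) with standard errors for 40 tested genes of the TGF-beta pathway (left) and 26 tested response and residency genes (right), ordered by size; purple marks an adjusted p under 0.05. Tgif1 and Rgs16 lie lowest, at -1.62 and -2.54, and Zfyve9 and Tgfbi highest, at 1.03 and 1.99.

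More genes shared the profile of Skil over the 6 libraries than that of Itgae, and other genes were not counted in this way. By Pearson correlation of log2(FPKM + 1), given as a description over 6 libraries of 2 groups, Tank, Tspyl1 and H3f3b were nearest to Skil (r of 0.998, 0.996 and 0.996), and 254 of 10645 genes exceeded 0.95. Ric8b, Inka1 and Rbm4b were nearest to Itgae (r of 0.985, 0.971 and 0.967), where 11 genes did.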

How the data were processed

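RNA-seq of CD8 T cells sorted from mouse spleen gave 3 control and 3 ultrasound libraries, grouped by sample title. Per the submitters' processing notes, the authors' tools included HISAT2, HTSeq, DESeq2 and R 3.2.0, and the build was mm10; their roles are not given in the sources used here. The authors deposited FPKM per library. The authors also deposited a signal column set, means of DESeq2 normalized counts, and the fold change as a ratio of groups. The authors' log2 fold change, p-value and q-value come from the same table, per the file headers. A filtered copy was not used.

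The 10655 genes that reached 1 FPKM in 3 or more libraries were fitted with limma 3.58.1 (trend, robust; R 4.3.3) on log2(FPKM + 1), two-sided, with Benjamini-Hochberg adjustment and a threshold of 0.05. With the term for ultrasound 2 and 3, the contrast is ultrasound 1 against the controls, and that lone library is assumed to vary like the others. The p-values of that fit do not hold the spread between ultrasound 1 and the other ultrasound libraries, so they cannot be set beside those of the main fit. Ratios used an exact permutation test. Reads were recovered from the linear relation of FPKM to the deposited group means: 100% of 64001 values under 1000 reads lay within 0.05 of a whole number. All pairs of libraries differed by more than counting noise (chi-square per degree of freedom 20.5 or more). The fit and the recovery were tested on simulated data. Implied gene lengths assume that FPKM was scaled to the recovered total. Coordinates are RefSeq's for GRCm38.p6, the assembly of mm10.

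The genes, lists and tests were chosen with earlier results of these data known. Genes named beside the 10 are the 5 largest called changes per direction and list, Itgb7, Cdh1, Smad4, Runx3 and the 3 most correlated genes of Itgae and Skil; any other gene was chosen after its values were seen. Alternatives were other scaling, pseudocount, filter, voom on recovered reads, a replicate block, a term for ultrasound 2 and 3, the authors' values and each library left out. Python 3.11.15, numpy 2.4.6, pandas 2.3.3 and matplotlib 3.10.9 were used.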

Additional observations from a re-analysis of the deposited data

How the results depend on the processing

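Of the 10 genes, 3 were called in the main analysis. By limma the count was 0 without a filter and with the replicate block (5 at an unadjusted p under 0.05 in each) and 1 with a term shared by ultrasound 2 and 3; leaving out one library gave 0 to 6. Of all tested genes 864 were called, against 437 with median-of-ratios scaling, 573 with voom, 150 with the term, 2179 in the authors' deposited table, and 0 without a filter and with the block (4216 and 3249 at an unadjusted p under 0.05); leaving out one library gave 0 to 5727. The split was 698 higher and 166 lower, against 293 and 144 with median-of-ratios scaling, 353 and 220 with voom, 936 and 48 centred on T cell genes, and 1295 and 884 in the authors' deposited table. Of the pathway list 7 were called, against 3 with median-of-ratios scaling, 2 with the term, 11 in the authors' deposited table, 0 without a filter and 0 with the block (18 and 15 at an unadjusted p under 0.05); leaving out one library gave 0 to 21. Of the response list 6 were called, against 0 without a filter and 0 with the block (11 at an unadjusted p under 0.05 in each); leaving out one library gave 0 to 17. The cause was not tested.

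Libraries that share a replicate number had deviations from their group means with correlations of -0.04, 0.05 and 0.06. With 3 libraries per group, these values cannot decide whether the numbers pair libraries. The replicate block called 0 of the 10 genes and 0 of all tested genes.

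The log2 changes of Tgfb1, Smad7, Ski, Skil and Itgae kept their direction under 14 alternatives. Directions turned only for genes that had not passed. With the term these were Tgfbr3 (0.13), Smad2 (-0.0423), Smad3 (-0.11), Itgb7 (-0.0497), Smad4 (0.19) and Runx3 (-0.013). Centring on T cell genes turned Tgfbr2 (0.0004) and Smad4 (0.0089). Median-of-ratios scaling turned Smad2 (-0.0693) and Runx3 (-0.0099), voom turned Smad2 (-0.0849) and Runx3 (-0.010), and in the authors' deposited table both were negative as well (-0.10 and -0.0279). Leaving out one library turned Tgfbr1 (from -0.19 to 0.27), Smad2 (from -0.0082 to 0.0472) and Smad4 (from -0.15 to 0.0385). Depth was at least 35024080 reads per library, and its effect on the calls was not tested.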

Other observations

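The KEGG annotation of the authors' table gave a further list for the TGF-beta signalling pathway, chosen after the data were seen and sharing genes with the lists above. It named 79 listed genes, of which 49 were tested, 5 rose and 5 fell by limma, beside 8.11% of all tested genes, with a median log2 change of 0.02. Bambi and Zfyve9 entered the test only through the group where each was higher; leaving them aside, 4 rose and 4 fell. Beside genes already described it held Mapk3 (ERK1, a kinase that can act on Smads), which rose from 23.8 ± 1.10 to 47.4 ± 8.91 FPKM, and Emp3, a membrane protein, which rose from 83.8 ± 3.03 to 129 ± 6.89 (mean ± SD, n = 3; limma adjusted p 0.0304 and 0.0297). It also held Ifng, the cytokine interferon gamma, which fell from 40.7 ± 7.93 to 13.2 ± 4.55 FPKM (mean ± SD, n = 3; limma adjusted p 0.0304).

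Thbs1, a platelet and macrophage protein that can free latent TGF-beta, was singled out after its values were seen. It had 2.96, 1.02 and 1.77 FPKM in control 1, 2 and 3 and 25.4, 1.08 and 1.82 in ultrasound 1, 2 and 3, so that ultrasound 1 stood alone (limma adjusted p 0.493). Trim33, a ligase that acts on Smad4, lay below every control in each ultrasound library (11.2, 8.24 and 6.77 FPKM against 12.3 to 14.9), with limma adjusted p 0.075. S1pr5, a receptor of effector cells, was at 2.86 FPKM in ultrasound 1 and at 14.4 and 17.8 in ultrasound 2 and 3. In controls it was at 2.17 to 2.64 FPKM (limma adjusted p 0.114). The sum of NK cell markers was also higher in ultrasound 2 and 3 (42.5 and 36.1 FPKM) than in ultrasound 1 (16.8). Its part in the values of S1pr5 was not tested.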
